A study of Mus musculus with 6 samples.

Results

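Naive CD8 T cells were taken from single-cell transcriptomes of mouse blood mononuclear cells by a rule on raw unique molecular identifiers (UMIs, 1 for each captured RNA molecule). Cells were kept with at least 200 genes and at most 20% of UMIs from mitochondrial genes. A kept cell was a member when Cd3d, Cd3e and Cd3g, the chains of the T cell receptor complex, gave at least 1 UMI together, and Cd8a and Cd8b1, the chains of the CD8 coreceptor, at least 2. Members had no UMI of Cd4, at most 1 of the B cell genes Cd79a, Cd79b and Ms4a1, none of Ly6c2 or Il2rb, and none of the effector genes Ccl5, Gzmk, Gzmb and Klrg1. The rule found 697 members among 49025 kept cells (1.42%), and among 6467 cells that met its conditions on Cd3, Cd8, Cd4 and B cell genes (gated CD8 T cells) they made up 10.8%.

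The study compared peripheral blood of male mice of 12 to 13 weeks in which diabetes had been induced (T2D) with that of controls (Con). Con mice were injected intraperitoneally with saline and T2D mice with streptozotocin (STZ), a toxin that enters insulin-producing beta cells, and the title of the series names a high-fat diet in the model. The strain, the diet of the controls, the STZ dose, the interval to sampling and the number of mice behind a library do not appear in the sources used here. Each group held 3 libraries, numbered by their titles, with 127, 121 and 109 members in Con 1 to Con 3 and 150, 112 and 78 in T2D 1 to T2D 3. Members of a library carried 273469 to 506387 UMIs together and 2532162 over all libraries. Nothing in the labels says that the libraries came from separate animals, so the p-values below measure the spread between libraries, which may be technical.

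A naive CD8 T cell has left the thymus and not yet met its antigen. It circulates between blood and lymph nodes, which it enters with the help of the chemokine receptor CCR7, and its quiescent state depends on transcription factors such as TCF1 (Tcf7), LEF1 and KLF2. Signals through the antigen receptor switch on a wave of early response genes within such cells, while TGF-beta holds them in check, and after priming the cells divide into effector cells with granzymes and into memory cells that express CD44, IL-2 receptor beta, CXCR3 and Eomes.

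The members carried RNA of 3 marker genes that the rule did not use, Itgae, Ccr9 and Dapl1. Itgae, which encodes the integrin CD103 of naive and mucosal CD8 T cells, was at 144, 124 and 96.6 CPM (a gene's UMIs scaled to the same total in every library) in the members of Con 1, 2 and 3, and at 156, 112 and 190 in those of T2D 1, 2 and 3. Ccr9, the receptor for the thymic and gut chemokine CCL25, was at 161, 144 and 148 CPM in Con and 162, 189 and 121 in T2D. Dapl1 was at 181, 187 and 106 CPM in Con and 115, 127 and 139 in T2D. For each of these 3 genes the libraries of both groups overlapped.

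In B cells of the same libraries (at least 2 UMIs of the B cell genes and none of Cd3 or Cd8) the 3 markers stayed at or below 7.31 CPM. Naive CD4 T cells, gated in the same way with Cd4 in place of Cd8 and without regulatory T cell genes, had 0.940 to 5.23 CPM of Itgae and 4.52 to 8.71 CPM of Ccr9, but 86.9 to 134 CPM of Dapl1. In CD8 T cells with a UMI of Ly6c2 or Il2rb and none of the effector genes, Itgae was at 70.9 to 124 CPM and Ccr9 at 78.5 to 103, but Dapl1 at 146 to 249 (mean 199) against a mean of 142 in members, so Dapl1 was not highest in the members. Among these gates Dapl1 was present in T cells of both lineages, and Itgae and Ccr9 were near 0 outside CD8 T cells. These levels describe gates cut on genes of the same cells and were not tested.

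Tcf7, Lef1 and Ccr7 of the naive state were high in the members, while Cxcr3, Tbx21, Eomes and Cd44 were low. Tcf7 lay between 1511 and 1916 CPM over the 6 libraries, Lef1 between 808 and 933 and Ccr7 between 557 and 780. Cxcr3 was at 0 to 7.07 CPM, Tbx21, the master regulator T-bet of effector cells, at 0 to 4.78, Eomes at 2.15 to 11.8 and Cd44 at 15.7 to 55.3. Nkg7, a granule membrane protein of cytotoxic cells, was at 290 to 347 CPM in members against 7.31 to 19.7 in naive CD4 T cells, and Klrd1 (CD94) at 275 to 413 against 31.4 to 74.1. Both genes were thus present in CD8 T cells without any UMI of the effector genes of the rule.

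**Figure D1:**
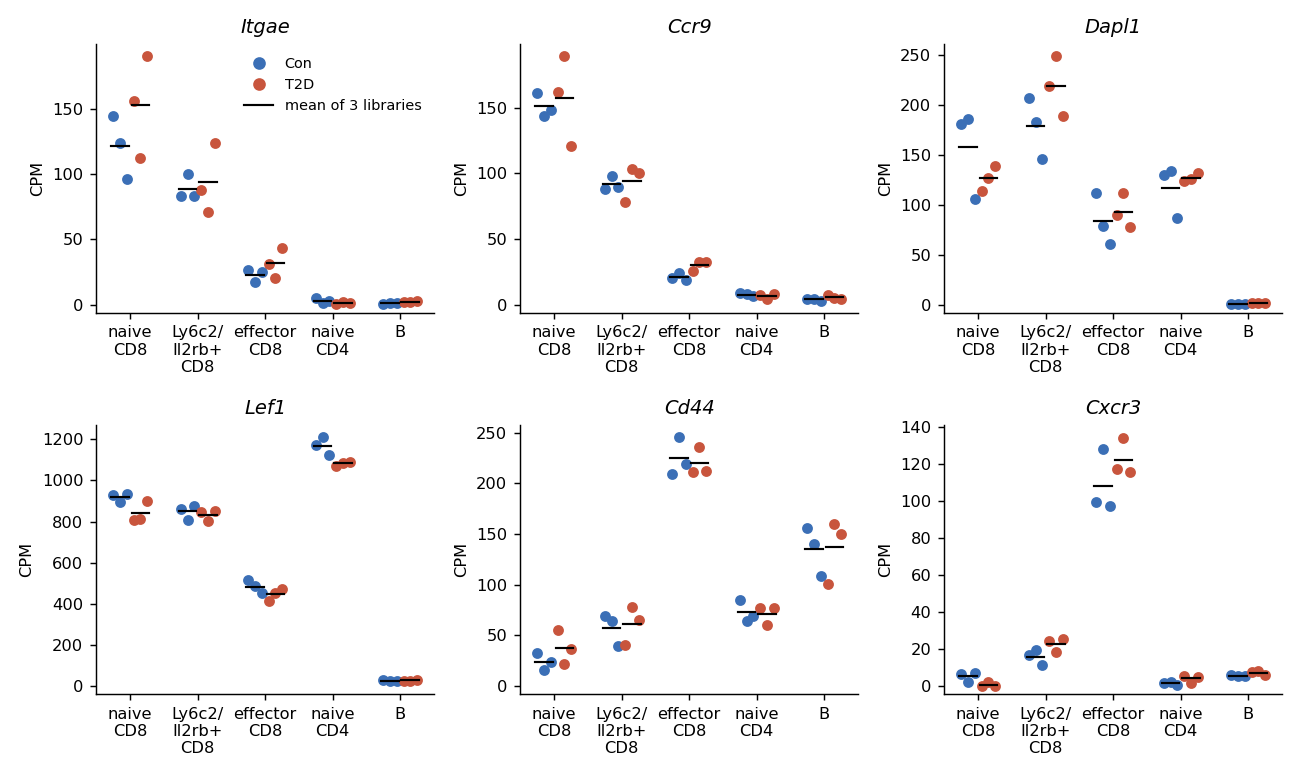
Levels of 6 genes in CPM (vertical axes) in 5 gates of the same 6 libraries (horizontal axes); each point is 1 library, coloured by group, and black bars are group means. Itgae and Ccr9 are highest in naive CD8 T cells and near 0 in naive CD4 T and B cells, Dapl1 is shared with naive CD4 T cells and has its highest mean in Ly6c2/Il2rb-positive CD8 T cells, and Cd44 and Cxcr3 are low in members and high in effector CD8 T cells.

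The cells that the conditions on memory and effector genes left out were not alike. Gated CD8 T cells with a UMI of Ly6c2 or Il2rb and none of the effector genes (2548 cells, called Ly6c2/Il2rb-positive here) had naive genes at nearly the level of the members. The 20 genes of the naive list summed to a mean of 15866 CPM in them and to 16380 CPM in members, against 12203 CPM in the 3222 cells with a UMI of the effector genes (effector CD8 T cells). The 31 genes of the memory and effector list summed to 1738 CPM in members, 2171 CPM in Ly6c2/Il2rb-positive cells and 6899 CPM in effector cells. In naive CD4 T cells the naive list summed to 19424.5 CPM and the memory and effector list to 1010 CPM. Among genes with at least 20 CPM, 14 of 19 of the naive list were lower in members than in naive CD4 T cells. Of the memory and effector list 9 of 11 were higher in members. Cd44 was lower in members, at a mean of 30.8 CPM against 72.2 in naive CD4 T cells. Genes such as Nkg7 and Klrd1 differed between CD8 and CD4 T cells, so these sums do not rank how naive the cells were.

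Cells just outside either of these thresholds had marker levels near those of members. In the 610 cells with exactly 1 UMI of Ly6c2 and Il2rb, just outside the rule, Itgae was at 130 CPM, Dapl1 at 146, Ccr9 at 131 and Lef1 at 935, and in members at 135, 143, 156 and 876. The 105 cells with exactly 1 UMI of the effector genes had 162 CPM of Itgae, 193 of Ccr9 and 2.38 of Eomes. Marker levels were lower with fewer CD8 UMIs: in the 133 cells with 1 UMI of Cd8a and Cd8b1, Itgae and Ccr9 were each at 49.5 CPM. Lyz2, a monocyte and neutrophil gene, was at 1567 CPM in them. Of its 538 UMIs there, 214, 143 and 159 came from Con 1, T2D 2 and T2D 3, and 10, 9 and 3 from Con 2, Con 3 and T2D 1. In the 55 members with 2 UMIs of Cd8a and Cd8b1 Itgae was at 92.5, Ccr9 at 116 and Lyz2 at 146. These values are descriptions of cells chosen by the rule, with no test.

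A single marker was seen in a minority of the members. No UMI of Itgae, Dapl1 or Ccr9 was found in 231 members (33.1%), 1 of the genes in 301 (43.2%), 2 of them in 146 (20.9%) and all of them in 19 (2.73%). The mean number of UMIs per cell rose along the same order, 3137, 3700, 4157 and 4591, so cells without a marker were also the shallowest. At full depth 25.0% to 37.2% of the members of a library had a UMI of Itgae, 22.7% to 33.1% one of Dapl1 and 28.2% to 40.2% one of Ccr9. In B cells, which should lack them, these shares were at most 0.80%, 0.691% and 1.32%, at medians of 2604 to 2858 UMIs per cell against 3417 to 3907 in members.

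The marker shares did not separate the groups. With each cell thinned to 1500 UMIs (654 members, with 18 of Con and 25 of T2D left out as shallower), 14.2% ± 2.80 (SD, n = 3) of Con and 16.8% ± 1.58 (SD, n = 3) of T2D members had a UMI of Itgae (two-sided exact permutation test over libraries, p = 0.3, and 0.9 after Benjamini-Hochberg adjustment over the 3 genes). For Dapl1 the shares were 17.7% ± 6.81 and 15.2% ± 4.23 (SD, n = 3 each; exact p = 0.7, adjusted 0.9). For Ccr9 they were 17.4% ± 2.92 and 18.2% ± 5.68 (SD, n = 3 each; exact p = 0.9, adjusted 0.9). With 3 libraries a side this test cannot give a p below 0.1. The differences for Dapl1 and Ccr9 changed sign when single libraries were left out: that for Dapl1, -2.58 percentage points for T2D against Con, became 0.627 without Con 1, and that for Ccr9, 0.867 points, became -0.264 without Con 2 and -2.39 without T2D 2. The levels of the 3 genes did not pass edgeR's quasi-likelihood test either (log2 fold changes of T2D against Con 0.25, -0.39 and 0.04 for Itgae, Dapl1 and Ccr9; adjusted p 0.799, 0.563 and 0.984).

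As a share of all kept cells, naive CD8 T cells were 1.68%, 1.65% and 1.34% in Con 1 to 3 and 1.67%, 1.27% and 0.953% in T2D 1 to 3. The groups overlapped, T2D 1 lying with the higher Con libraries, and the difference of -0.26 percentage points did not pass (exact p = 0.3); with all cells thinned to 1500 UMIs before the rule was applied it was -0.0212 points. The 95% Wilson intervals, which cover counting error only, ran from 1.12% to 1.62% for the lowest Con library, Con 3, and from 0.765% to 1.19% for T2D 3.

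Among gated CD8 T cells the members were 17.1%, 14.8% and 11.8% in Con and 10.8%, 8.30% and 6.26% in T2D. Every T2D library lay below every Con library, although T2D 1 and Con 3 differed by less than their Wilson intervals, 9.30% to 12.6% and 9.85% to 14.0%. The means were 14.6% ± 2.66 and 8.46% ± 2.29 (SD, n = 3 each), a difference of -6.09 points at the smallest p that 3 against 3 libraries can give (exact p = 0.1). The denominator moved in the other direction: gated CD8 T cells were 9.82% to 11.4% of kept cells in Con and 15.2% to 15.4% in T2D, and effector cells 38.8% to 42.7% of them in Con and 54.2% to 57.1% in T2D. Members were thus a smaller share of CD8 T cells in each T2D library, while their share of all kept cells overlapped between the groups.

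Free RNA and depth bear on a rule that asks for zeros. B cells, which should lack Ccl5, granzymes and Klrg1, had a UMI of them in 6.0% to 9.28% of cells in Con and in 14.0% to 17.95% in T2D, and one of Ly6c2 or Il2rb in 8.20% to 9.80% and 13.0% to 14.1%. This background moved with the groups, and its part in the lower share of members was not tested. When 1 UMI of the effector genes was allowed, an alternative chosen after seeing the data, the shares among gated CD8 T cells were 12.2% to 19.9% in Con and 7.87% to 12.6% in T2D, which overlapped (exact p = 0.2). They also overlapped when no B cell UMI was allowed (11.3% to 17.5% and 6.28% to 11.3%; exact p = 0.2), likewise chosen after seeing the data. With all cells thinned to 1500 UMIs before the rule was applied, 29.5% to 33.7% of gated CD8 T cells were members in Con and 18.2% to 21.5% in T2D, again without overlap (exact p = 0.1). Members were rarer among deeper cells in both groups: of gated CD8 T cells under 2500 UMIs, 26.9% were members in Con and 16.05% in T2D, and of those with 6000 or more, 3.77% and 1.14%.

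**Figure D2:**
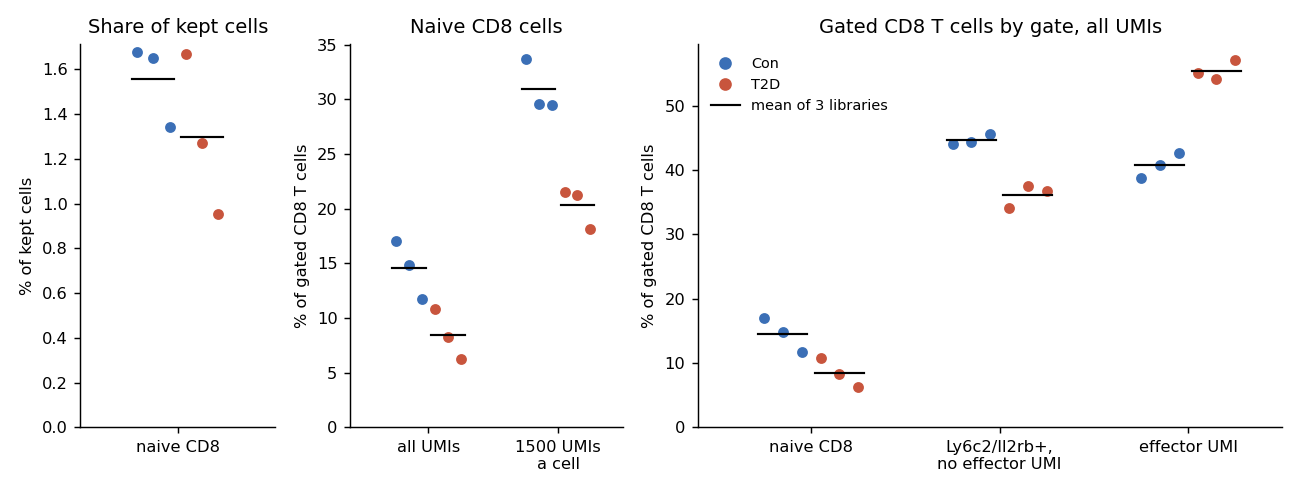
Naive CD8 T cells as a percentage of kept cells (left), as a percentage of gated CD8 T cells with all UMIs and after thinning to 1500 UMIs a cell (middle), and beside the other 2 gates of CD8 T cells (right); points are libraries and black bars group means. The groups overlap on the left, and every T2D library lies below every Con library for naive cells of the middle and right panels and above for effector cells.

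The depth of the members overlapped between the groups, while their share of ribosomal protein UMIs did not. The median UMIs per member were 3632, 3613 and 3907 in Con and 3417, 3720 and 3561 in T2D (difference -151.7, exact p = 0.4). The median share of UMIs from ribosomal protein genes was 18.2% to 18.9% in Con and 17.2% to 17.9% in T2D, without overlap (exact p = 0.1). RNA of other cell types was found in the summed members at uneven levels. All 16 genes of the B cell list were detected, summing to 2024 to 3436 CPM in Con and 2166 to 2294 in T2D. The 12 genes of the neutrophil list, of which Camp was at 0, summed to 68.3 to 146 CPM except in T2D 1 with 616 and T2D 2 with 163. The 11 platelet genes (Gp1bb at 0) summed to 411 CPM in T2D 1 against at most 173 elsewhere, and the 9 red cell genes (Slc4a1 among those at 0) to 1908 CPM in Con 3 against at most 751 elsewhere. The monocyte list (796 to 1196 CPM in Con, 806 to 1053 in T2D), the NK cell list (400 to 480 and 411 to 455), the CD4 T cell list (121 to 144 and 121 to 256), the list of gamma-delta and innate-like T cells (49.5 to 68.3 and 39.5 to 73.1) and the dendritic cell list (234 to 284 and 208 to 285) overlapped between the groups.

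Between T2D and Con naive CD8 T cells 30 genes differed. They were 30 of 5747 genes tested (0.522%) at an adjusted p under 0.05, by edgeR's quasi-likelihood test on UMIs summed per library with Benjamini-Hochberg adjustment over all genes tested. Of these, 26 fell (0.452% of genes tested) and 4 rose (0.0696%). The lower genes included 7 early response genes of the antigen receptor and 3 inhibitors of TGF-beta signalling, Per1 of the circadian clock and the RNA decay factor Zfp36l2, and the higher ones were Myb, Zfp281 and the surface proteins Ly6a and Ly6e. The groups did not overlap in 773 genes (13.5%), among them 26 of the 30 called genes, the others being Cxcl2, Ly6e, Slc38a2 and H2-Aa. None of the genes of the rule was called, but the rule itself holds Cd4, Ly6c2, Il2rb, Ccl5, Gzmk, Gzmb and Klrg1 at 0 UMIs in members, so these could not be. Cd8b1 did not overlap between the groups (1153 to 1253 CPM in Con, 1386 to 1526 in T2D), while Cd8a did (809 to 822 and 725 to 1055). The median log2 fold change of all genes tested was -0.00.

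Many of the calls were lost when a single library was left out or when cells were thinned before the rule. Junb, Csrnp1, Per1, Ly6a, Zfp36l2, Smad7 and Zc3hav1, 7 of the 30, passed whichever library was left out. The count was 19 without Con 1, of which 16 were among the 30. With DESeq2 13 genes were called, all lower in T2D. That test gave an adjusted p for 12 of the 30 genes, and 9 of these passed. With each cell thinned to 1500 UMIs before the rule was applied, edgeR called 23 genes, 9 higher and 14 lower in T2D, of which 14 were among the 30. After that thinning 1235 cells met the rule, against 697 members at full depth, so depth and membership changed together and their parts cannot be told apart. The named genes that lost their call there were Kcnq1ot1, Cxcl2, Ganc, Egr1, Spice1, Nr4a1, Herpud1, Irf2bpl, Tgif1, H2-Aa, Ier5, P2ry10, Zc3hav1, Fam107b and Myb. The log2 fold changes that moved by more than 1.5 times were those of Kcnq1ot1, Cxcl2 (to -0.12), Ganc (-0.38), Egr1 (-0.77), Spice1 (-0.42), Nr4a1 (-0.56), Zc3hav1 (-0.26, adjusted p = 0.456) and Myb (0.71).

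**Figure D3:**
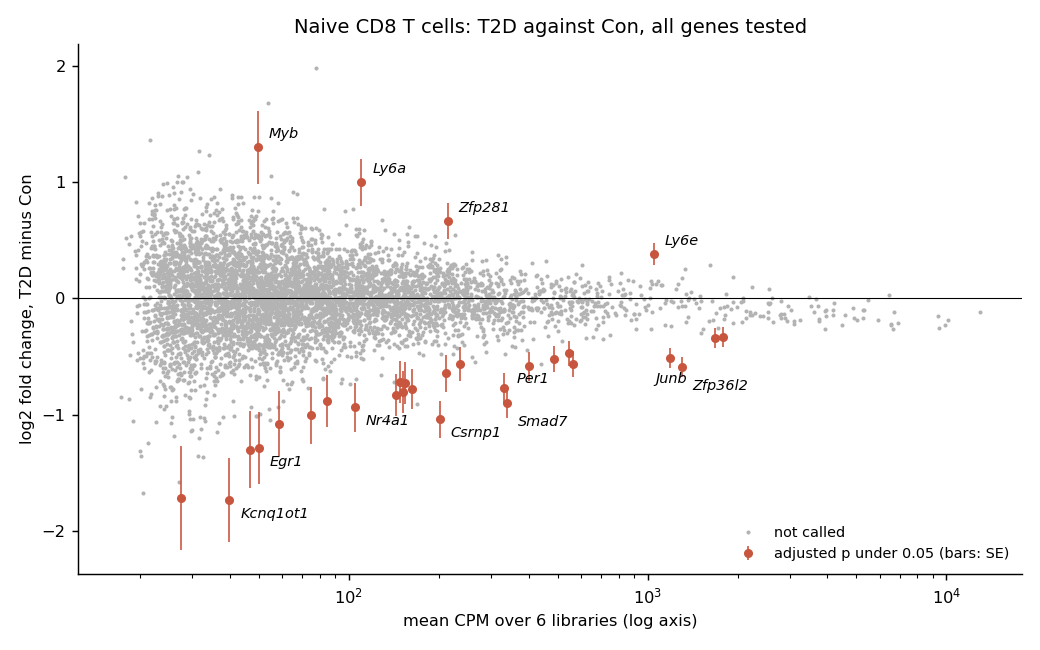
Log2 fold change of T2D against Con in naive CD8 T cells (vertical axis) against mean level in CPM (horizontal axis, log scale) for the 5747 genes tested. Grey points did not pass, red points with standard error bars are the 30 genes with an adjusted p under 0.05, of which 26 lie below and 4 above the line at 0.

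Among early response genes, which are switched on within minutes to hours of a signal through the antigen receptor, 7 of 19 tested fell in T2D and none rose: Csrnp1, Junb, Ier2, Ier5, Rgs1, Nr4a1 and Egr1. The median log2 fold change of the 19 was -0.52, and 17 of the values were negative. Over all genes tested 26 of 5747 fell (0.452%). This list, like the others here, was chosen with earlier results of these data known, so these counts describe it and do not test it. Csrnp1, a nuclear protein of the immediate early response, was at 286, 272 and 257 CPM in Con and 168, 134 and 91.4 in T2D. Every T2D library lay well under the lowest Con library, and the log2 fold change was -1.04 ± 0.16 (SE; adjusted p = 3.7e-06). Junb, a subunit of the AP-1 transcription factor, was at 1497, 1324 and 1324 CPM in Con and 1118, 938 and 936 in T2D. Its groups did not overlap either (log2 fold change -0.51 ± 0.09 SE, adjusted p = 6.9e-05).

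Ier2 was at 198, 187 and 188 CPM in Con and at 105, 122 and 113 in T2D, with little spread inside either group (log2 fold change -0.81 ± 0.18 SE, adjusted p = 0.00536). Without T2D 1 its adjusted p was 0.0563. Rgs1, which dampens signalling of chemokine receptors and is also in the list of homing genes as its single called member of 21 tested, was at 200, 160 and 191 CPM in Con and 113, 108 and 95.1 in T2D (a log2 fold change of -0.83 ± 0.18 SE, adjusted p = 0.00536, and 0.0603 without Con 1).

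Nr4a1, the orphan nuclear receptor Nur77 that is widely used as a reporter of antigen receptor signals, was at 174, 142 and 94.2 CPM in Con and 79.0, 71.8 and 69.5 in T2D. Con 3 came close to the T2D libraries, and Con 1 was the highest (log2 fold change -0.94 ± 0.21 SE, adjusted p = 0.00856, and 0.22 without Con 1). Egr1, a zinc finger factor of the same response, was at 83.9, 78.7 and 49.5 CPM in Con and 35.5, 26.3 and 25.6 in T2D (a log2 fold change of -1.29 ± 0.31 SE, adjusted p = 0.019). Its call was lost without Con 1, Con 2, T2D 2 or T2D 3, with an adjusted p of 0.151 at the highest, without Con 1. Ier5 averaged 280 CPM in Con and 192 in T2D (a log2 fold change of -0.56 ± 0.15 SE, adjusted p = 0.0427), a call that was lost without Con 1, Con 2, T2D 2 or T2D 3 (up to 0.229).

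The other early response genes did not pass the test. Nr4a3 averaged 46.2 CPM in Con and 18.8 in T2D (log2 fold change -1.36, adjusted p = 0.0929), Fosl2 74.9 and 41.2 (-0.94, adjusted p = 0.0998) and Jun 789 and 632 (-0.35, adjusted p = 0.0929). Fos, at 412 and 362 CPM, and Cd69, the early activation antigen that retains cells in tissue, at 341 and 311, had log2 fold changes of -0.24 and -0.17. Dusp1 (0.16) and Myc (0.63, adjusted p = 0.206) were the members with positive values. Only genes of the list that passed the level filter were tested, 19 of 30.

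Of 16 TGF-beta pathway genes tested, 3 fell and none rose, while 26 of all 5747 genes tested fell (0.452%). The 3 genes of the list encode proteins that restrain the pathway. The median over the list was -0.08, so the list as a whole lay near that of all genes. Smad7, the inhibitory SMAD that the pathway itself induces, was at 379, 499 and 429 CPM in Con and 261, 196 and 274 in T2D. The groups were clearly apart, and the log2 fold change of -0.90 ± 0.13 SE had one of the lowest p-values of all genes (adjusted p = 9.2e-07). Skil, which encodes the SMAD corepressor SnoN, was at 192, 223 and 200 CPM in Con and 142, 105 and 117 in T2D (a log2 fold change of -0.78 ± 0.17 SE, adjusted p = 0.00536). Leaving out Con 2 or T2D 2 ended the call (adjusted p up to 0.0957).

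Tgif1, another corepressor of SMAD proteins, was at 226, 164 and 160 CPM in Con and 111, 136 and 95.1 in T2D (a log2 fold change of -0.72 ± 0.18 SE, adjusted p = 0.0296, and up to 0.362 without Con 1, T2D 1 or T2D 3). The receptor Tgfbr2 was level at 299 and 290 CPM on average (log2 fold change -0.12, adjusted p = 0.909). Smad3, at 35.8 and 23.7 CPM, and Smad4, at 201 and 225, had log2 fold changes of -0.58 and 0.08 and did not pass (adjusted p = 0.741 and 0.941). Ski, the partner of SnoN, averaged 178 CPM in Con and 217 in T2D (log2 fold change 0.21, adjusted p = 0.799).

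Per1, a repressor of the circadian clock that glucocorticoids also induce, was at 394, 432 and 412 CPM in Con and 259, 234 and 256 in T2D. The 2 groups were tight and far apart (log2 fold change -0.77 ± 0.13 SE, adjusted p = 1.8e-05). It was the single called gene of 11 clock and glucocorticoid genes tested, whose median was -0.08, and Tsc22d3 (GILZ), a target of the glucocorticoid receptor, averaged 767 CPM in Con and 759 in T2D (log2 fold change -0.08, adjusted p = 0.917). The labels do not name the hour of blood sampling.

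Zfp36l2, which binds AU-rich elements and brings about the decay of messenger RNAs in quiescent lymphocytes, was at 1433, 1542 and 1646 CPM in Con and 1076, 1024 and 1079 in T2D. The T2D libraries lay within a narrow range below all Con libraries (log2 fold change -0.59 ± 0.09 SE, adjusted p = 9.2e-07). Of 20 genes tested in the list of RNA decay and quiescence it was the single one called. The median of the list was -0.19, with 15 negative values. By edgeR's test 9 of the 20 had an unadjusted p under 0.05, beside 472 of all 5747 genes tested. Its relative Zfp36 averaged 385 CPM in Con and 283 in T2D with overlap (log2 fold change -0.48, adjusted p = 0.0583), Zfp36l1 606 and 628 (-0.00, adjusted p = 0.999), and the quiescence factor Klf2 2428 and 2654 (0.08, adjusted p = 0.873).

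**Figure D4:**
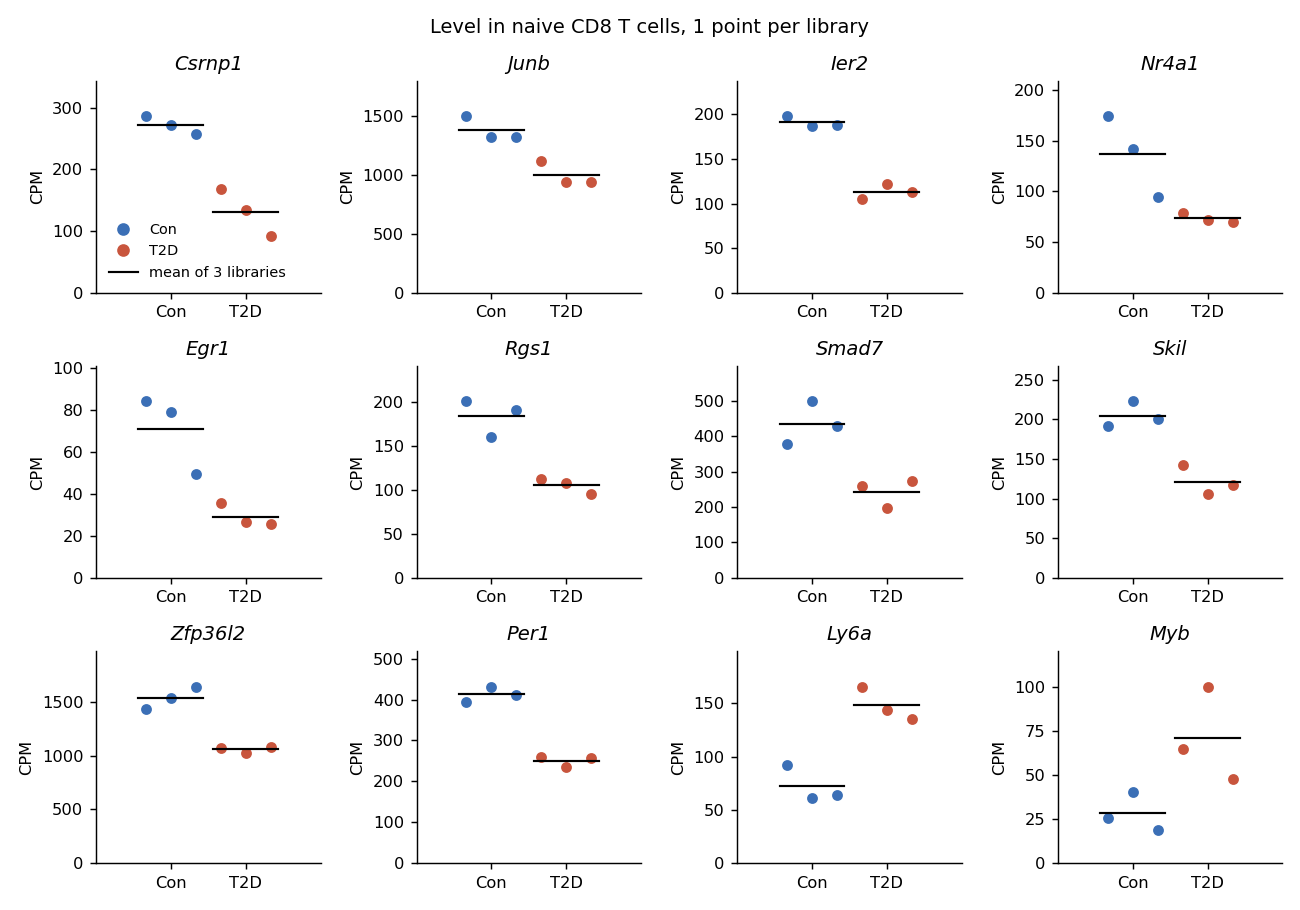
Levels of 12 genes called in naive CD8 T cells, in CPM (vertical axes, from 0), by group (horizontal axes); each point is 1 library and black bars are group means. In each panel the 3 Con and the 3 T2D libraries do not overlap, with the first 10 genes lower and Ly6a and Myb higher in T2D, and Con 3 is nearest to T2D for Nr4a1 and Egr1.

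Promoters of the called genes were read from the RefSeq promoter table (build GRCm38.p6, 250 bases before to 50 after a start), which held 21 of the 30 genes with 32 promoters. Motifs were searched on both strands as exact letters: AP-1 as TGACTCA, the E-box as CACGTG, CREB as TGACGTCA, NR4A as AAAGGTCA, a STAT dimer site as TTCNNNGAA and the interferon-stimulated response element. AP-1 letters stood in 2 of the 32 promoters and in 5.20% of all 32851 promoters of the table, the E-box in 3 (7.15% of all), CREB in 2 (1.79%), NR4A in 1 (1.51%), the STAT site in 3 (8.30%) and the interferon element in none (3.44%). No match overlapped another. Junb, Csrnp1, Per1, Ly6a, Zfp36l2 and Smad7 kept their calls in every alternative that gave them an adjusted p (DESeq2 gave none for Csrnp1 and Ly6a). Of these the promoter table held Junb, whose promoter had no match, Csrnp1 and Per1. A promoter with a match is printed for Csrnp1 and for Per1, with the matched letters in capitals. Promoter 1 of Csrnp1 and promoter 2 of Per1, each with a STAT site, and promoters 2 and 3 of Csrnp1, with no match, are not printed.
Csrnp1, promoter 4 of 4, chr9:119982974-119983273, minus strand, AP-1 on the reverse strand at -102 and -14 from the start: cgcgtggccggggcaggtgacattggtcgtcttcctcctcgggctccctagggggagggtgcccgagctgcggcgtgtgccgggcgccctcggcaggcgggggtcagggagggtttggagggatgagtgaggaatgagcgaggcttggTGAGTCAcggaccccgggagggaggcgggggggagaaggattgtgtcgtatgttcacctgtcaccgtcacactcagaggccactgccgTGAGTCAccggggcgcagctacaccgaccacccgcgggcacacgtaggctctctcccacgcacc
Per1, promoter 1 of 2, chr11:69098699-69098998, plus strand, E-box at -166 from the start: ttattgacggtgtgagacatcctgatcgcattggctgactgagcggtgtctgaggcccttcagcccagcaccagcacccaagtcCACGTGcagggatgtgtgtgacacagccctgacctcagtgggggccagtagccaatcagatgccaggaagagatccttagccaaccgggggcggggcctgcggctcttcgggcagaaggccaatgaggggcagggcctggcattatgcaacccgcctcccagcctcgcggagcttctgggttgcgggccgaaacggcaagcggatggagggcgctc
These matches describe the letters in the windows and were not tested as sites of binding.

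The 4 higher genes included a pair of Ly6 surface proteins that interferons induce. Ly6a (Sca-1) was at 92.5, 60.7 and 63.6 CPM in Con and 166, 144 and 135 in T2D. Each T2D library exceeded each Con library (log2 fold change 1.00 ± 0.21 SE, adjusted p = 0.00275). Ly6e was at 1017, 825 and 853 CPM in Con and 1297, 1294 and 1013 in T2D, so that T2D 3 lay just under Con 1 (log2 fold change 0.38 ± 0.09 SE, adjusted p = 0.0238, lost without Con 2, Con 3, T2D 1 or T2D 2, up to 0.251). Ly6a has near copies beside it in the genome, and the sources used here do not say how reads shared with them were counted.

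They were the 2 called genes of 17 tested in the list of interferon-inducible GTPases and Ly6 genes, whose median was 0.45, with 13 positive values. Over all genes tested 4 of 5747 rose (0.0696%). Iigp1, a GTPase of cell-autonomous immunity, averaged 34.4 CPM in Con and 75.1 in T2D without overlap and did not pass (log2 fold change 1.05, adjusted p = 0.0778), nor did Gbp4 (0.76, adjusted p = 0.0643) or the transcription factor Irf1 (177 and 275 CPM, 0.55, adjusted p = 0.0799). Of 25 genes tested that type I interferon induces, edgeR called none (3 at an unadjusted p under 0.05, none with DESeq2), and their median was 0.03.

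Myb, a transcription factor of progenitor and stem-like memory cells, was at 25.8, 40.5 and 18.8 CPM in Con and 65.2, 101 and 47.5 in T2D. T2D 3 was close to Con 2, and the log2 fold change was 1.30 ± 0.32 SE (adjusted p = 0.0201, lost without Con 1, Con 3 or T2D 2, up to 0.430). It was the single called gene among 12 Notch and Myb genes tested (median -0.05). Zfp281, a zinc finger factor, was at 146, 178 and 158 CPM in Con and 237, 251 and 315 in T2D, clearly apart (log2 fold change 0.66 ± 0.16 SE, adjusted p = 0.0136, lost without Con 1 or T2D 3, up to 0.141).

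The remaining lower genes had varied roles. Zc3hav1 (ZAP), which binds viral RNA, was at 589, 549 and 558 CPM in Con and 391, 447 and 380 in T2D (a log2 fold change of -0.52 ± 0.11 SE, adjusted p = 0.00458). Fam107b was at 611, 632 and 636 CPM in Con and at 476, 452 and 475 in T2D, the tightest groups of those printed here (log2 fold change -0.47 ± 0.11 SE, adjusted p = 0.00956, and 0.081 without T2D 2). P2ry10, a receptor for lysophosphatidylserine, averaged 661 CPM in Con and 464 in T2D (a log2 fold change of -0.56 ± 0.11 SE, adjusted p = 0.00102, and 0.0845 without Con 2). Slc38a2, an amino acid transporter, averaged 472 and 330 CPM and overlapped, with T2D 3 above Con 3 (log2 fold change -0.59 ± 0.12 SE, adjusted p = 0.00414, and 0.179 without Con 1).

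Bbc3, the pro-apoptotic protein PUMA, averaged 97.7 CPM in Con and 51.7 in T2D (a log2 fold change of -1.01 ± 0.24 SE, adjusted p = 0.0201, lost without Con 1, Con 2, T2D 1 or T2D 2, up to 0.123). Herpud1, of the degradation pathway of the endoplasmic reticulum, averaged 108 and 61.8 CPM (-0.88, adjusted p = 0.0351), a call that ended on leaving out any library but T2D 3 (up to 0.194). Stk17b, a kinase that sets the threshold of antigen receptor signalling, averaged 1977 and 1614 CPM (-0.33, adjusted p = 0.0379, lost without Con 2, Con 3 or T2D 3, up to 0.374). Irf2bpl averaged 194 and 116 CPM (-0.73, adjusted p = 0.0232, lost without Con 2, Con 3, T2D 2 or T2D 3, up to 0.182).

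Kcnq1ot1, Spice1, Ganc and Cxcl2 were among the called genes of lowest level. Kcnq1ot1, a long noncoding RNA transcribed antisense to Kcnq1, was at 86.1, 42.7 and 56.5 CPM in Con and 23.7, 19.1 and 10.97 in T2D, from 40, 19 and 24 UMIs and from 12, 8 and 3. T2D was lower by a log2 fold change of -1.74 ± 0.36 SE (adjusted p = 0.00275, and 0.11 without Con 1), and -0.25 (adjusted p = 0.91) when cells were thinned to 1500 UMIs before the rule was applied. It was -0.92 (adjusted p = 0.261) when 1 UMI of the effector genes was allowed. The sources used here name no strand setting of the counting, so UMIs of Kcnq1 cannot be told apart from it. Spice1, of centrioles and spindles, averaged 77.6 and 39.0 CPM (-1.08, adjusted p = 0.04, lost without Con 1, Con 3, T2D 1 or T2D 3, up to 0.339) and Ganc, a neutral alpha-glucosidase, 65.2 and 28.6 (-1.30, adjusted p = 0.031, lost without Con 2, Con 3, T2D 1 or T2D 2, up to 0.301). Cxcl2, a chemokine of neutrophils, was at 66.7, 38.2 and 16.5 CPM in Con and 7.90, 9.57 and 25.6 in T2D, which overlapped (-1.72, adjusted p = 0.04, lost without Con 1, Con 2, T2D 1 or T2D 2, up to 0.616). Its log2 fold change was 0.23 with at least 1 rather than 2 UMIs of Cd8a and Cd8b1.

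H2-Aa, an MHC class II chain of antigen-presenting cells, was at 299, 180 and 287 CPM in Con and 162, 191 and 150 in T2D, where Con 2 lay among the T2D libraries (log2 fold change -0.64 ± 0.16 SE, adjusted p = 0.0251, lost without Con 1, Con 3, T2D 1 or T2D 3, up to 0.273). It was the one called gene of 12 tested in the B cell list, whose median log2 fold change was -0.59, with 11 negative values. The summed level of that list was high in the same libraries, 3436 CPM in Con 1 and 3177 in Con 3 against 2024 in Con 2. With no B cell UMI allowed in the rule, the log2 fold change of H2-Aa was -0.26 (adjusted p = 0.775).

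Some lists that describe the state of the cells held no called gene, and they are grouped here for that reason. The lists of early response, of RNA decay and quiescence and of homing genes, given above, did hold called genes. Of 19 naive T cell genes tested none passed edgeR's test (3 at an unadjusted p under 0.05, none with DESeq2), and the median log2 fold change was -0.00. Il7r, the receptor of the survival cytokine IL-7, averaged 1427 CPM in Con and 1811 in T2D without overlap (0.28, adjusted p = 0.0998), and Ets1, a lineage transcription factor, 1839 and 1600, also without overlap (-0.26, adjusted p = 0.161). Of 11 memory and effector genes tested none passed (1 at an unadjusted p under 0.05, none with DESeq2; median 0.10). There were 14 such lists with 6 to 33 genes tested each. They covered also NF-kB, antigen receptor signalling, cytokine receptors, costimulation, MHC class I, glycolysis, fatty acid and insulin signalling, oxidative stress, histones and the cell cycle. By edgeR's test 0 to 4 genes a list had an unadjusted p under 0.05. None was called by edgeR or DESeq2, and medians ran from -0.07 to 0.14. Together 24 of the 260 tested entries of these lists had an unadjusted p under 0.05, beside 472 of all 5747 genes tested. Data were also simulated from these libraries' mean levels and sizes, with a spread set by hand and not estimated from them. There the test recovered 47.4% of genes changed by 1 and 98.9% of genes changed by 2 on the log2 scale. Recovery at the real spread was not measured, and smaller changes could have been missed at this depth.

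The same contrast was made in 3 other gates. Those cells come from the same libraries, so the comparisons share their animals and any technical difference between groups, and the values are given side by side. The test called 93 of 8079 genes (1.15%) in naive CD4 T cells, 55 of 8952 (0.614%) in Ly6c2/Il2rb-positive CD8 T cells and 192 of 9574 (2.01%) in effector CD8 T cells. Of the 30 genes of the naive CD8 T cells 22 were called with the same sign in naive CD4 T cells, 16 in Ly6c2/Il2rb-positive and 16 in effector CD8 T cells. Per1 had log2 fold changes of -0.77 in naive CD8, -1.03 in naive CD4, -0.70 in Ly6c2/Il2rb-positive and -0.37 in effector cells, each called (adjusted p = 4.8e-13, 0.00175 and 0.0337 in the other gates). Csrnp1 was called in all of them too, at -1.04, -1.05, -1.11 and -0.79 in the same order.

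Junb was at -0.51, -0.50, -0.56 and -0.53, and not called in Ly6c2/Il2rb-positive cells alone (adjusted p = 0.213). Smad7 was at -0.90, -0.81, -0.72 and -0.86 and Zfp36l2 at -0.59, -0.64, -0.56 and -0.36, both also not called there (adjusted p = 0.18 and 0.154). Ly6a was at 1.00, 0.57, 0.77 and 0.76 and missed the threshold in effector cells (adjusted p = 0.166). Myb, at 1.30, 0.22, 0.41 and 0.38, was called in naive CD8 T cells and in none of the other gates.

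A fit over both cell types, with library as a term, tested whether the T2D effect itself differed. Between naive CD8 and naive CD4 T cells it called 2 of 7807 genes (0.0256%). Kcnq1ot1 averaged 61.8 CPM in Con and 17.9 in T2D naive CD8 T cells, and 40.4 and 47.6 in naive CD4 T cells (log2 difference of the effects -1.96, adjusted p = 0.0198). Actb averaged 5376 and 5522 CPM in naive CD8 T cells and 5432 and 6222 in naive CD4 T cells (-0.17, adjusted p = 0.0198), and was chosen with Kcnq1ot1 by this difference alone. DESeq2 made neither call. The call of Kcnq1ot1 ended without Con 1, Con 3, T2D 1, T2D 2 or T2D 3 (adjusted p up to 0.981, without Con 1) and that of Actb without Con 1, Con 2, Con 3, T2D 1 or T2D 3 (up to 0.981, without Con 1). After thinning to 1500 UMIs the difference for Kcnq1ot1 was -0.30 (adjusted p = 0.98). At an unadjusted p under 0.05 there were 384 genes (4.92%), near the share that this threshold gives when no gene differs. Myb had a log2 difference of 1.12 against naive CD4 T cells that did not pass (adjusted p = 0.703), so its effect is not shown to differ between the cell types. Between naive and Ly6c2/Il2rb-positive CD8 T cells edgeR called none of 8367 genes (0%), and DESeq2 none. An unadjusted p under 0.05 was found by edgeR for 422 genes (5.04%), again near that share. The differences of the 30 genes had a median size of 0.16 against naive CD4 T cells and 0.17 against Ly6c2/Il2rb-positive cells, with a median SE of 0.18 in each comparison.

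**Figure D5:**
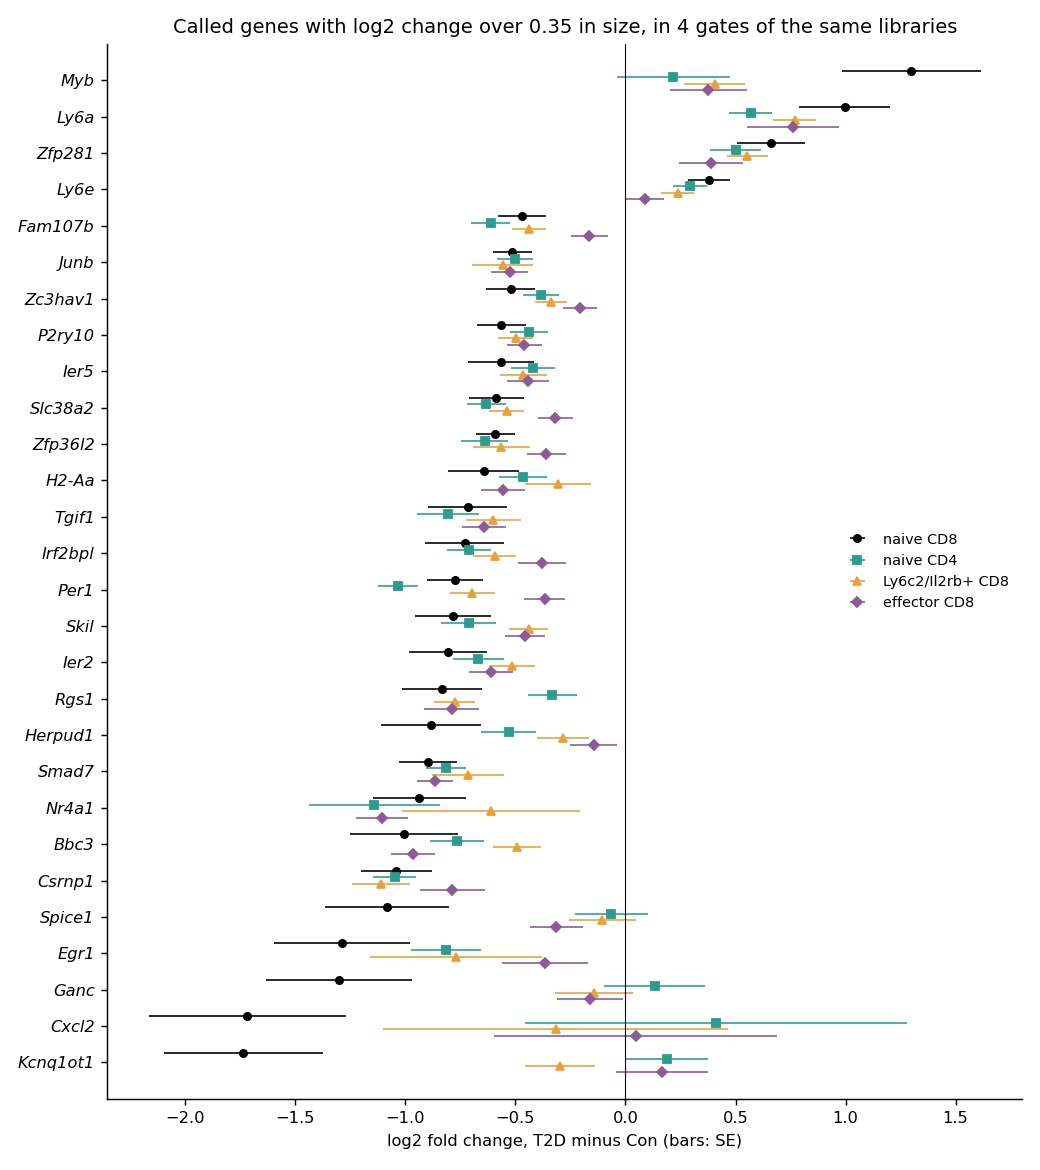
Log2 fold change of T2D against Con with standard errors (horizontal axis) for 28 of the 30 genes called in naive CD8 T cells, those with a change of over 0.35 in size there (vertical axis, ordered by their value there), in naive CD8 T cells and in 3 other gates of the same libraries. Csrnp1, Smad7, Per1 and Junb lie to the left of 0 in all 4 gates, and Kcnq1ot1 lies at -1.74 in naive CD8 T cells and between -0.30 and 0.19 in the other gates.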

How the data were processed

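Peripheral blood mononuclear cells were isolated by density centrifugation with lysis of red blood cells, and BD Rhapsody whole-transcriptome libraries were made, per the labels' protocols. The deposited values are the authors' raw UMI counts per gene and cell, 1 matrix per library with 31253 genes (43 symbols shared by several genes). CASAVA 1.8, Seurat, UMI-tools and build mm10 were used, per the submitters' processing notes, which give no settings. The sources used here name no aligner, annotation or strand setting, so overlapping and near-identical genes are uncertain. The members and all gene lists were chosen with earlier results of these data known.

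Of 49407 barcodes 49025 were kept. The 6 libraries held 167675950 UMIs, and members had 503 to 8098 each. Doublets were scored with scrublet in scanpy 1.11.5 (expected rate 0.06) and left in: 3.01% to 4.16% of a library and 0 to 2 members per library were marked. Of 47915 distinct kept barcodes 1100 occurred in more than 1 library, and 1 of 696 among members. Between the member sums of libraries of a group, chi-square divided by its degrees of freedom was 1.43 to 1.76. Different cells of the same sample can also give such values, so this does not exclude technical duplicates. Of the gene identifiers 31107 matched the reference table and 30203 with the same symbol.

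Member UMIs were summed per library and tested with edgeR 4.0.16 (R 4.3.3; robust quasi-likelihood, TMM, filterByExpr, Benjamini-Hochberg, threshold 0.05). Differences of the T2D effect were tested as a cell type by condition term with library as a term. CPM is relative to all UMIs of the gate's cells in a library. Shares were tested by two-sided exact permutation tests over libraries. Alternatives were DESeq2 1.42.0, other size factors, no filter, thinning each cell to 1500 UMIs before the rule (1235 cells met it), left-out libraries and changed thresholds of the rule. The script was tested on simulated data. Genes were named by a rule: the 12 highest and 12 lowest log2 fold changes among called genes of at least 20 CPM without overlap, every called gene of the lists, Itgae, Dapl1 and Ccr9, and the called differences between cell types. Cxcl2, Irf2bpl, Slc38a2, P2ry10, Zc3hav1, Fam107b and Stk17b, called outside this rule, were named after their values were seen. One called gene is not reported here.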

Additional observations from a re-analysis of the deposited data

Results flagged for a closer look

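The T2D effect differed between naive CD8 and naive CD4 T cells of the same libraries for 2 genes in the test of that difference. For Kcnq1ot1 the log2 difference was -1.96 (adjusted p = 0.0198, edgeR): the gene was lower in all 3 T2D libraries in naive CD8 T cells, where it rests on 3 to 40 UMIs a library, and overlapped between the groups in naive CD4 T cells, at 44 to 54 UMIs a library. The difference was -0.30 (adjusted p = 0.98) after thinning to 1500 UMIs, and its call was also lost with DESeq2 and without doublets (adjusted p = 0.0853). For Actb, which encodes beta-actin, the log2 difference was -0.17 (adjusted p = 0.0198): it overlapped between the groups in naive CD8 T cells and was higher in all 3 T2D libraries in naive CD4 T cells, at 5945 to 6438 CPM against 5306 to 5640.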

How the results depend on the processing

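The main comparison called 30 genes. The count was 13 with DESeq2, 16 with at least 1 Cd8 UMI, and, in alternatives chosen after seeing the data, 63 with at most 1 UMI of Ly6c2 and Il2rb and 17 with at most 1 of the effector genes. Thinning to 1500 UMIs gave 23, of which 14 were among the 30, with 9 higher and 14 lower against 4 and 26. Leaving out a library gave 19 to 33. Of 551 values of the 30 genes over 19 alternatives, 405 kept direction and call, 144 lost the call and 2 changed sign, both of Cxcl2 (0.23 with at least 1 Cd8 UMI, 0.30 with at most 1 effector UMI). Junb, Csrnp1, Per1, Ly6a, Zfp36l2 and Smad7 kept their call in every alternative that gave them an adjusted p. The uncalled log2 fold change of Ccr9 ran from -0.11 to 0.17 with a library left out (-0.0047 without Con 2, -0.11 without T2D 2) and was -0.040 with at least 3 Cd8 UMIs and -0.14 with at most 1 UMI of Ly6c2 and Il2rb. The 2 calls of the difference from naive CD4 T cells became 1 with RLE size factors, without a filter or without doublets, 0 with DESeq2 or thinning, and 0 to 1 with a library left out. The difference from Ly6c2/Il2rb-positive cells gave 0 to 2 calls with a library left out. The marker share differences ran from -6.15 to 0.627 points for Dapl1 and from -2.39 to 2.85 for Ccr9 with a library left out. With a replicate block 27 genes were called, 24 of them among the 30. The deviations of same-numbered libraries from their group means had correlations of 0.0035, -0.017 and -0.022. Counting noise in sums over few cells can hide a shared deviation, so this does not settle whether the numbers pair libraries. The differences in the share of members among kept and among gated CD8 T cells kept their sign under every alternative tried. The causes were not tested. With 78 to 150 members a library, genes under about 20 CPM were not tested.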

Other observations

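Jun and Nfkbid, named after their values were seen, stood differently from gate to gate. Jun, a subunit of AP-1, was at 774, 805 and 787 CPM in Con and 703, 682 and 512 in T2D naive CD8 T cells, which did not overlap, while in naive CD4 T cells it was at 524 to 841 in Con and 500 to 839 in T2D. Nfkbid, an atypical IkB protein that acts in the nucleus, overlapped between the groups in naive CD8 T cells (51.8 to 71.0 CPM in Con, 38.3 to 76.8 in T2D). It did not overlap in naive CD4 T cells (107 to 162 and 52.4 to 70.8), Ly6c2/Il2rb-positive CD8 T cells (69.4 to 83.0 and 45.7 to 49.0) or effector CD8 T cells (71.9 to 94.5 and 48.5 to 59.1). The log2 differences of the T2D effect, naive CD8 minus naive CD4 T cells, were -0.41 for Jun and 1.06 for Nfkbid and did not pass (edgeR, adjusted p = 0.69 and 0.583).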
